A study of Mus musculus with 2 samples.

Results

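The genes described here are 39 complement and coagulation genes of the mouse, taken by symbol from the 43346 Ensembl genes of the deposited tables: 24 complement components, regulators and receptors and 15 genes of blood clotting and its control. All 39 matched 1 row in each library. The study measured polyadenylated RNA of the urinary bladder of C57BL/6J mice at 8 weeks of age, from littermates of both sexes. It holds 1 group of 2 libraries, labelled as biological replicates 1 and 2, with no treatment, no mutant allele and no other tissue. Both libraries name the same donor entry but separate biosamples, and how many animals each holds is not stated, so the spread between them may be partly technical. With 1 group and 2 libraries there is no test of a condition, and the smallest two-sided p that an exact sign test could give is 0.5. Levels are therefore given in each library in TPM (transcript number per fixed total, a level per length), and differences between the libraries are given as folds beside the share of all genes past the same fold.

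Complement is a cascade of blood proteins and cell surface proteins that marks microbes and dying cells, recruits leukocytes and can open pores in membranes. It starts from antibody-bound C1 (the classical pathway), from sugar-binding lectins (the lectin pathway) or from C3 itself (the alternative pathway), and all routes meet at C3. Coagulation starts when tissue factor on cells outside the vessel meets factor VII of the blood, and ends when thrombin turns fibrinogen into fibrin. The liver makes most of the circulating proteins of both systems, while macrophages, fibroblasts, endothelium and epithelia make C1q, regulators, tissue factor and surface anticoagulants locally. In a wall exposed to urinary bacteria, such as that of the bladder, both systems belong to the first defence against infection.

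The libraries are deep and alike in size, with 99367453 estimated fragments on genes for replicate 1 and 105057347 for replicate 2. A count of 0 allows up to 0.0302 CPM in replicate 1 and 0.0286 CPM in replicate 2 (3 counts, counting error only). All 9 urothelial markers and all 8 smooth muscle markers were detected in both libraries, at mean levels of at least 40.2 and 142 TPM. All 8 smooth muscle markers were on the side of replicate 1, with a median log2 ratio of replicate 1 over replicate 2 of 0.40. All 6 adipocyte markers (median -0.98), all 5 mesothelial markers (median -0.57) and 6 of 9 urothelial markers (median -0.15) were on the side of replicate 2. In bulk tissue, fewer cells of a type and less RNA per cell cannot be told apart. The part of these tissue differences in the values below was not tested except where a value is given.

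Most of the genes were well expressed and a smaller group lay near 0. At 1 TPM or more in both libraries were 27 of 39 genes, against 32.7% of all genes and 60.5% of protein-coding genes, and 21 of 39 reached 10 TPM in both. The other 12 were under 1 TPM in both. Of the complement genes, 20 of 24 were detected, with C1q, C1r, C1s, C3 and the regulators Clu, Cd59a, Cr1l and Cd55 each at 60 TPM or more in both libraries, and the detected genes of the clotting side were tissue factor, factor XIII A and all 5 anticoagulant or receptor genes. The 12 genes near 0 were Masp1, Masp2, C6, Cfi and 8 of the 10 coagulation factor and fibrinogen genes. Together the 39 genes held 0.154% of gene TPM in replicate 1 and 0.174% in replicate 2.

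**Figure D1:**
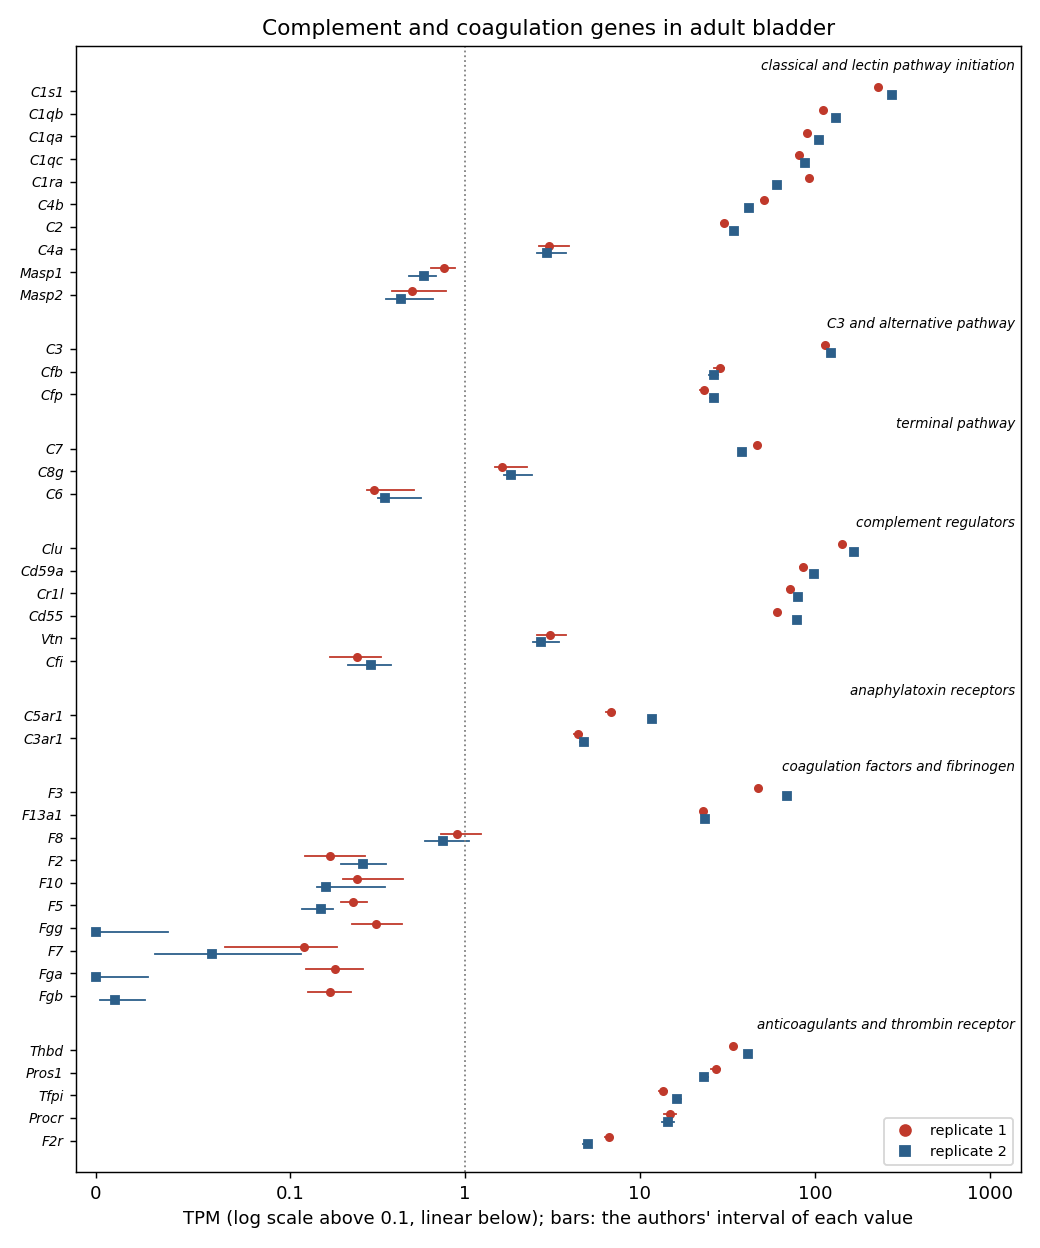
TPM of the 39 genes by role, with replicate 1 as red circles and replicate 2 as blue squares. The horizontal axis is logarithmic above 0.1 TPM and linear below it, bars are the authors' interval of each value, and the dotted line marks 1 TPM. C1s1 is the highest at 229 TPM in replicate 1, against 278 TPM in replicate 2, and Fga, Fgb and Fgg lie at the low end, apart between the libraries.

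None of the 27 genes whose mean reached 1 TPM differed by 2-fold or more between the libraries, where 1.84% of the 14533 genes at that level did (1.46% higher in replicate 1 and 0.385% higher in replicate 2). With no limit on the level and a pseudocount of 0.1 TPM, an alternative chosen after seeing the data, 3 of 39 genes were past 2-fold, Fga, Fgb and Fgg, against 2.76% of all genes. Ratios are log2 of TPM plus 0.5, replicate 1 over replicate 2, relative to the median of all genes (the shift removed was -0.08). They ranged from -0.65 for C5ar1 to 0.67 for C1ra, with a median of -0.05, against 0 by construction for all genes. On this scale 10 of 27 genes were higher in replicate 1 and 17 in replicate 2, with C3, C4a and F13a1 near enough to 0 to change side under another scaling. The authors give an interval for each TPM value, whose level is not stated in the sources used here. The 2 intervals did not overlap for 20 of the 27 genes, against 60.7% of all genes. Of these 20, 5 were higher in replicate 1 (C1ra, C4b, C7, Pros1 and F2r, background 21.7%) and 15 in replicate 2 (background 39%). Across all genes the ratio was higher for longer genes (Spearman 0.34 over 14533 genes of the same 2 libraries), and across the 27 genes the value was 0.23.

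**Figure D2:**
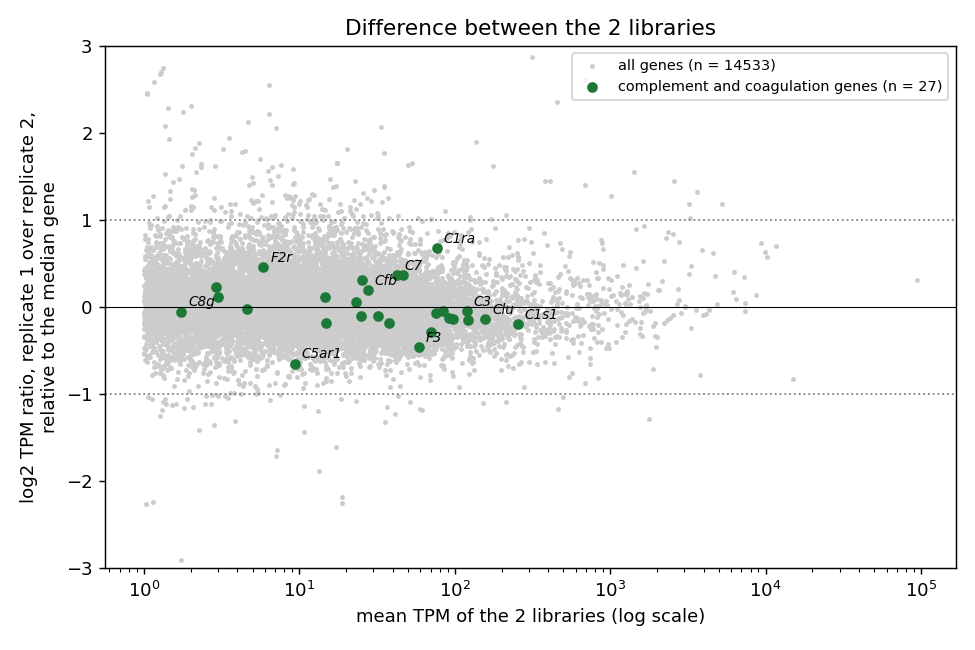
Log2 TPM ratio of replicate 1 over replicate 2, relative to the median gene, against mean TPM on a log axis. Grey points are all 14533 genes whose mean reached 1 TPM (26 lie beyond the axis), green points the 27 complement and coagulation genes, and dotted lines mark 2-fold. The green points stay between -0.65 (C5ar1) and 0.67 (C1ra).

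The first component of the classical pathway was high throughout. C1qa, C1qb and C1qc encode the 3 chains of C1q, the molecule that recognises antibody and dying cells, and lie next to each other on the minus strand of chromosome 4 (mm10, chr4:136880129-136898803). C1qb had 112 TPM in replicate 1 and 131 TPM in replicate 2. C1qa had 90.4 TPM in replicate 1, against 106 TPM in replicate 2, and C1qc had 80.8 TPM in replicate 1 and 88.3 TPM in replicate 2. All 3 chains were lower in replicate 1, by less than 2-fold, and kept the order C1qb, C1qa, C1qc in both libraries: the log2 ratio of C1qa over C1qb was -0.31 in both, and that of C1qc over C1qb was -0.47 in replicate 1 and -0.57 in replicate 2. C1q is a known product of tissue macrophages, and all 12 macrophage markers were detected, with a median log2 ratio of 0.02 and 6 genes on each side of 0. Of these markers 1 was past 2-fold, higher in replicate 1, where 1.46% of all genes were. The 3 of highest level were Lyz2 (lysozyme) at 320 TPM in replicate 1, against 343 TPM in replicate 2, Tyrobp at 58.4 TPM in replicate 1, against 83.5 TPM in replicate 2, and Folr2 (folate receptor beta) at 39.1 TPM in replicate 1, against 61.4 TPM in replicate 2.

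C1s1 and C1ra encode the 2 serine proteases of the C1 complex, and they differed between the libraries in opposite directions. C1s1 (ENSMUSG00000038521.13, chr6:124530345-124542359, minus strand) had 229 TPM in replicate 1 and 278 TPM in replicate 2, a mean of 253 ± 34.6 TPM (SD, n = 2) that ranked 410 among all genes. C1ra (chr6:124512405-124523443, plus strand) had 92.1 TPM in replicate 1 and 61.0 TPM in replicate 2. The log2 ratio of C1s1 over C1ra was thus 1.31 in replicate 1 and 2.18 in replicate 2. Both genes have a near copy beside them on chromosome 6. Aligned end to end, the C1s1 and C1s2 transcripts (2906 and 2662 bases) are identical at 2556 of 2911 positions, or 87.8%. The C1ra and C1rb transcripts (2981 and 2429 bases) are identical at 2383 of 2982, or 79.9%. Unmatched ends and gaps count as differences in these shares, so they understate the likeness where 1 transcript is shorter. The longest identical runs are 229 and 757 bases, and reads could be split between copies. The copies took few of them, with C1s2 at 76.4 counts in replicate 1 and 81.6 counts in replicate 2, and C1rb at 12.8 and 11.4 counts in replicates 1 and 2. In the older mm9 junction table, 7 junctions with 736 to 5024 reads have 1 end at a listed C1s1 splice site and span 94779 to 97528 bases. Whether their far ends are exons of C1s2 was not tested.

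C2, the protease of the classical and lectin C3 convertase, had 30.1 TPM in replicate 1 and 34.4 TPM in replicate 2. C4b, the mouse complement C4 gene proper, had 51.2 TPM in replicate 1 and 41.9 TPM in replicate 2, with intervals apart and a log2 ratio of 0.37. C4a, its near copy known in mice as the sex-limited protein, was at 3.03 TPM in replicate 1, against 2.94 TPM in replicate 2. The log2 ratio of C4b over C4a was 3.87 in replicate 1 and 3.62 in replicate 2, and C4a took 1.23% of the expected counts on both genes in replicate 1 and 1.63% in replicate 2. The full-length C4a transcript held only 8.25% of C4a TPM in replicate 1 and 11.2% in replicate 2. Retained-intron transcripts of 932 and 526 bases held the largest mean shares, 32.4% and 29.9%. The ratio of C4b over C4a also depends on the unit, at 5.84 in CPM and 2.48 in mm9 RPKM.

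The low C4a value has to be read against how alike the genes are. C4a (ENSMUSG00000015451.12, chr17:34809092-34823464) and C4b (ENSMUSG00000073418.4, chr17:34728380-34743882) both lie on the minus strand in the histocompatibility region with C2 and Cfb, and their full-length transcripts of 41 exons are identical at 95.9% of aligned positions, with a longest identical run of 433 bases. Reads across their 40 paired junctions, pooled over both libraries in the mm9 table, ranged along C4b over 133 to 1853 (median 1056.5) and along C4a over 0 to 932 (median 24.5). At the 8 junctions where the 50 bases on each side do not differ between the genes, C4a took 32.2% of the reads. That share was 7.51% at the 14 junctions with 1 or 2 differences, 2.07% at the 7 with 3 to 5, and 1.19% at the 11 with more than 5. Across the 40 junctions, which share 1 pooled library, the Spearman correlation of C4a reads with the number of differences was -0.76. The junctions shown are the one with the most C4a reads and, among the 11 with more than 5 differences, the one with the lowest C4a share, with 50 bases on each side of the junction from the GENCODE M21 transcripts (mm10, minus strand, 5′ to 3′) and capitals where the genes differ. The eighth junction had the most C4a reads, 932, against 929 for C4b, and its flanks hold no difference. The eleventh had 5 reads for C4a and 1218 for C4b, and its flanks differ at 7 positions.
C4a eighth junction: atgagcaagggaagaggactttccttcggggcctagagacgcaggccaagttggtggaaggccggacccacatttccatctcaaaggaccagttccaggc
C4b eighth junction: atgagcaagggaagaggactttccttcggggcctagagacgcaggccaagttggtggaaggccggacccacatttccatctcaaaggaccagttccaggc
C4a eleventh junction: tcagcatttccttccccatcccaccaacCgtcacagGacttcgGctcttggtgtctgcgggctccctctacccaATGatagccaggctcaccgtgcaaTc
C4b eleventh junction: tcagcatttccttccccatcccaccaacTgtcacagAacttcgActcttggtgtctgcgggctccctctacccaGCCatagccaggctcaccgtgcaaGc

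**Figure D3:**
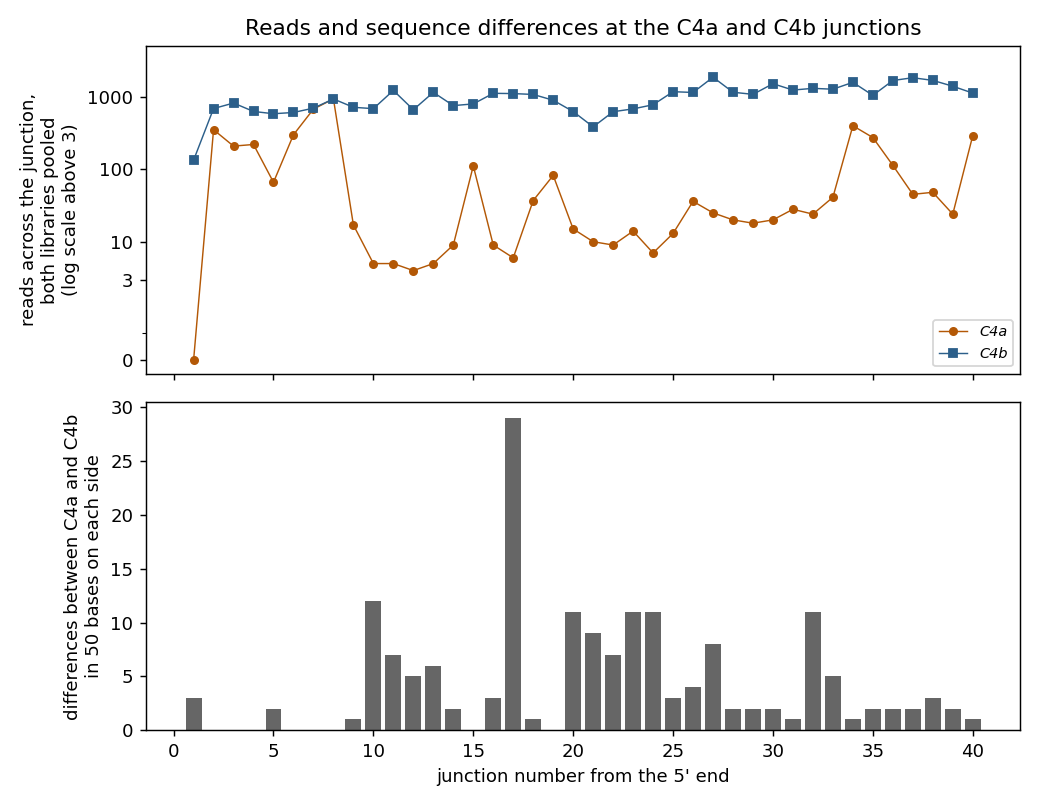
Reads across the 40 paired junctions of C4a (brown circles) and C4b (blue squares) from the 5′ end, both libraries pooled, on an axis that is logarithmic above 3 reads. The lower panel counts the differences between the genes in the 50 bases on each side. C4a reads peak at 932 at the eighth junction, where the flanks do not differ, and lie between 5 and 25 at the 11 junctions with more than 5 differences.

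In the lectin pathway, both protease genes were near 0. Masp1 (ENSMUSG00000022887.8, chr16:23449417-23520815, minus strand) had 0.76 TPM in replicate 1 and 0.58 TPM in replicate 2, from 149 counts in replicate 1 and 125 counts in replicate 2. Masp2, which cleaves C4 and C2, had 0.50 TPM in replicate 1 and 0.43 TPM in replicate 2, from 58 and 79 counts in replicates 1 and 2. Neither gene's intervals separated the libraries. Masp1 makes 2 proteases that share their first exons: MASP-1 of the lectin pathway (704 codons in GENCODE M21), whose protease part is encoded by separate exons, and MASP-3 (733 codons), whose protease part is 1 exon and which is known to activate the pro-form of factor D. The junction sequences show the fork, with 30 bases of the last shared exon in lower case and the first 30 bases of each protease part in capitals (GENCODE M21, mm10, minus strand, chr16:23474874-23474903 joined to chr16:23470701-23470730 in MASP-3 and to chr16:23465136-23465165 in MASP-1).
Masp1 MASP-3 form: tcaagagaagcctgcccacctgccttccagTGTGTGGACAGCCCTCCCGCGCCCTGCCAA
Masp1 MASP-1 form: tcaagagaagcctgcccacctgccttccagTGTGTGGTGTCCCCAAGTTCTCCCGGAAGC

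At that fork, 42 reads entered the MASP-3 exon and 0 entered the first MASP-1 exon, which allows a MASP-1 share of up to 7.14% (3 counts of 42, counting error only). The 5 junctions between the separate MASP-1 exons held 4 reads in all, against 19 to 48 reads at each of the 9 shared junctions. These reads are pooled over both libraries. The Masp1 TPM rests on 1 quantified transcript of 2752 bases, whose identifier is that of the 704-codon MASP-1 form in GENCODE M21 (5345 bases there), so the level was estimated on a model other than the form seen at the fork, and its exons are not given in the tables.

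**Figure D4:**
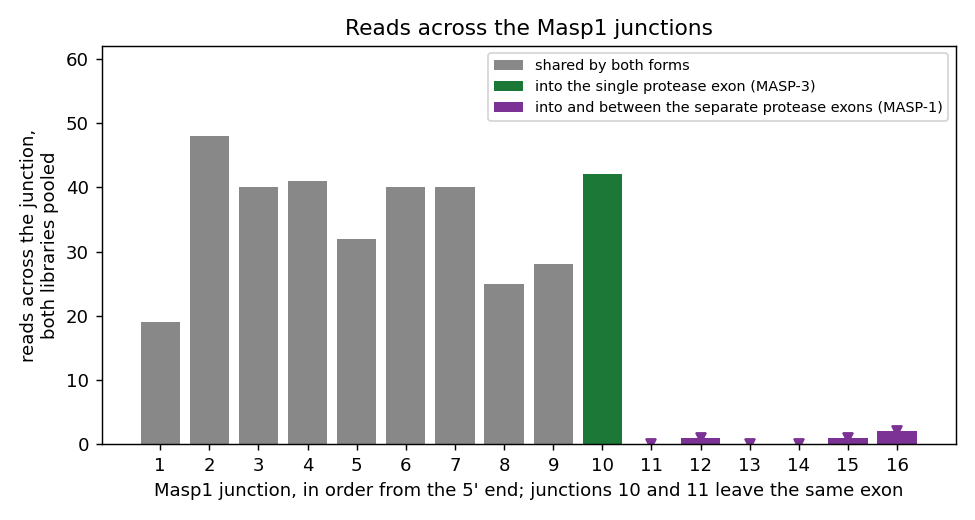
Reads across each Masp1 junction from the 5′ end, both libraries pooled, with shared junctions in grey, the junction into the single MASP-3 exon in green and those into and between the MASP-1 exons in purple, with triangles at their values. The green bar stands at 42 reads and the purple ones at 0 to 2.

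C3 and both alternative pathway genes were expressed. C3, the protein on which all pathways converge, had 114 TPM in replicate 1 and 124 TPM in replicate 2. Cfb (factor B), the protease of the alternative convertase, had 28.6 TPM in replicate 1, against 26.5 TPM in replicate 2, and its intervals overlapped. Cfp (properdin), which stabilises that convertase, had 23.2 TPM in replicate 1 and 26.5 TPM in replicate 2. C3 stood above Cfb by a log2 ratio of 1.97 in replicate 1 and 2.21 in replicate 2, and above C4b by 1.15 in replicate 1 and 1.56 in replicate 2. In mm9 RPKM the log2 ratio of C3 over C4b was only 0.07. The 20 junctions nearer the 5′ end of C3 had a median of 1446.5 pooled reads and the 20 nearer the 3′ end a median of 3416. Factor D (Cfd), which activates factor B and is a known adipocyte product, had 313 TPM in replicate 1 and 677 TPM in replicate 2, a log2 ratio of -1.03. It was the 1 gene past 2-fold among the other complement, coagulation and fibrinolysis genes read for comparison whose mean reached 1 TPM. These were 5 complement components, 11 complement regulators and receptors, 5 coagulation factors, 6 anticoagulants and protease-activated receptors and 6 fibrinolysis genes. At that level 1.84% of all genes were past 2-fold in either direction, and 0.385% were past it with replicate 2 higher. The adipocyte markers stood at 0.104% of gene TPM in replicate 1 and 0.188% in replicate 2, with Fabp4 at 587 TPM in replicate 1, against 1093 TPM in replicate 2, and their part in the Cfd value was not tested.

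Of the terminal pathway, which builds the membrane pore, C7 alone was well expressed among the genes chosen. C7 had 46.7 TPM in replicate 1 and 38.3 TPM in replicate 2. C8g, the lipocalin-like chain of C8, had 1.63 TPM in replicate 1, against 1.84 TPM in replicate 2, and C6 had 0.30 TPM in replicate 1 and 0.35 TPM in replicate 2. The log2 ratio of C7 over C6, the protein that binds before it, was 5.88 in replicate 1 and 5.51 in replicate 2. The other pore components, named after their values were seen, were all under 1 TPM: Hc (complement C5) had 0.28 TPM in replicate 1, against 0.42 TPM in replicate 2, and C8a, C8b and C9 had 0 to 4 counts in either library.

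The regulators that sit on cells or act locally were among the highest genes, and the soluble protease factor I was near 0. Clu (clusterin), which binds the nascent pore, had 144 TPM in replicate 1 and 168 TPM in replicate 2. Cd59a, the membrane protein that blocks pore assembly, had 85.2 TPM in replicate 1 and 98.7 TPM in replicate 2. Cd55 (decay-accelerating factor), which takes apart the C3 convertases, had 61.0 TPM in replicate 1 and 79.2 TPM in replicate 2. All 3 were higher in replicate 2 with intervals apart, by less than 2-fold. Cr1l (Crry), the rodent membrane regulator of C3b and C4b, had 71.9 TPM in replicate 1 and 79.8 TPM in replicate 2. Vtn (vitronectin), an inhibitor of the pore and an adhesive protein, had 3.07 TPM in replicate 1 and 2.73 TPM in replicate 2. Cfi (factor I), the protease that inactivates C3b and C4b with the help of a cofactor, had 0.24 TPM in replicate 1 and 0.29 TPM in replicate 2, from 35 and 46 counts in replicates 1 and 2.

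Cr1l had 2 main protein-coding forms. A transcript of 440 codons held 40.3% of its TPM in replicate 1 and 42.9% in replicate 2, and one of 255 codons held 36.7% in replicate 1 and 37.3% in replicate 2. In the mm9 junction table an intron of 1492 bases that Ensembl 65 does not list (chr1:196956204-196957695) had 598 reads, against 1317 for the listed first intron of 1178 bases, a share of 31.2% (exact 95% binomial interval 29.2 to 33.4%, counting error only). Its length equals that of the first intron of the 255-codon form in the later annotation. Of the 19 genes with several quantified transcripts whose mean reached 1 TPM, 16 had 1 transcript above 50% in both libraries.

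The receptors of the complement peptides were at modest levels. C5ar1, the C5a receptor of neutrophils and macrophages, had 6.87 TPM in replicate 1 and 11.8 TPM in replicate 2, the lowest ratio of the 27 genes at -0.65 and with intervals apart. C3ar1, the C3a receptor, had 4.45 TPM in replicate 1 and 4.82 TPM in replicate 2, with overlapping intervals. C3ar1 over C5ar1 was -0.57 on the log2 scale in replicate 1 and -1.20 in replicate 2. Beside the C5ar1 value, the macrophage markers held 0.0635% of gene TPM in replicate 1 and 0.0722% in replicate 2. On the ratio scale used for C5ar1 these 12 markers had a median of 0.02, with 6 on each side of 0. None of 6 neutrophil markers reached 1 TPM, and Ly6g was at 0 counts in both.

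On the clotting side, the initiator was high and the plasma factors it acts on were near 0. F3 (tissue factor, ENSMUSG00000028128.9, chr3:121723537-121735048, plus strand), the surface receptor of factor VII, had 47.6 TPM in replicate 1 and 69.5 TPM in replicate 2, a log2 ratio of -0.46 with intervals apart. Among the 5 clotting factors, F8, the cofactor made by endothelium, was the highest at 0.90 TPM in replicate 1, against 0.75 TPM in replicate 2. F2 (prothrombin) had 24 counts in replicate 1 and 42 counts in replicate 2, F10 had 31 and 24 counts in replicates 1 and 2, and F7 had 15 and 9 counts in replicates 1 and 2. F5, the cofactor of factor X, had 130 counts in replicate 1 and 90 counts in replicate 2, or 0.23 TPM in replicate 1 and 0.15 TPM in replicate 2, with intervals apart. The ratio of F2 in CPM, replicate 1 over replicate 2, was 0.604 with an exact 95% interval of 0.350 to 1.02 for counting error, and that of F7 was 1.76 (0.722 to 4.57), so neither was resolved at this depth. F13a1, the factor XIII subunit that crosslinks fibrin and a known macrophage product, was the other expressed gene of this role, at 23.0 TPM in replicate 1, against 23.5 TPM in replicate 2.

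F3 can be spliced without the fifth exon, which turns the membrane protein into a soluble form. The sequences show that junction, with the last 30 bases of the fourth exon in lower case and the first 30 bases of the next exon in capitals (GENCODE M21, mm10, plus strand, chr3:121731673-121731702 joined to chr3:121732381-121732410 or to chr3:121734106-121734135).
F3 with the fifth exon: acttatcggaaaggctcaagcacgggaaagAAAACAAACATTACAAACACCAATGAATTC
F3 without the fifth exon: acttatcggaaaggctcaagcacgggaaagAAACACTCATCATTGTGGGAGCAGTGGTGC

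The form with the exon accounted for nearly all spliced reads: 1196 pooled reads entered the fifth exon and 1345 left it, while 5 skipped it. The skipping share was 0.416% (exact 95% interval 0.135 to 0.969%, counting error only).

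In CPM, the 3 fibrinogen chains were the genes in which the libraries stood furthest apart, at levels under 1 TPM. Fga had 27 counts in replicate 1 and 0 counts in replicate 2, Fgb had 48 counts in replicate 1 and 3 counts in replicate 2, and Fgg had 36 counts in replicate 1 and 0 counts in replicate 2. In TPM these are 0.18, 0.17 and 0.31 for Fga, Fgb and Fgg in replicate 1, against 0, 0.01 and 0 in replicate 2. All 3 chains were thus seen in replicate 1 with nearly none in replicate 2, and their intervals did not overlap. Against a floor of 3 counts in replicate 2, the CPM of Fga was at least 9.52-fold higher in replicate 1 and that of Fgg at least 12.7-fold higher. Fgb was 16.9-fold higher in replicate 1 (exact 95% interval 5.45 to 84.9), and the 3 chains summed, 111 counts against 3, were 39.1-fold higher (13.04 to 193). These intervals cover counting error only, and on the log2 scale with its 0.5 TPM pseudocount the differences shrink to between 0.48 for Fgb and 0.78 for Fgg. On that scale C1ra at 0.67 and C5ar1 at -0.65 lay further from 0 than Fgb and Fga (0.53). Spliced reads were present for all 3 chains in the pooled mm9 table, with 8 reads across annotated junctions of Fga, 39 of Fgb and 30 of Fgg.

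Fibrinogen is made by hepatocytes, and hepatocyte markers were read beside it. In CPM 10 of 11 were higher in replicate 1: Alb (albumin) had 478 counts in replicate 1 and 111 counts in replicate 2, Ahsg (fetuin A) had 125 and 12 counts in replicates 1 and 2, and Serpina1a had 17.8 and 2 counts in replicates 1 and 2. The exception was Ttr (transthyretin), with 1915 counts in replicate 1 and 2421 counts in replicate 2. For counting error, the exact 95% interval of the CPM ratio excluded 1 for Alb, Ahsg, Serpina1a, Serpina1b and Apoh, higher in replicate 1. It also excluded 1 for Ttr, higher in replicate 2. For Apoa1, Apoa2, Apob, Fgl1 and Cps1 the interval included 1. The whole list held 0.00341% of gene TPM in replicate 1 and 0.00332% in replicate 2, most of it Ttr, and none of its genes was at 0 in both libraries. Of the liver factors given above, F5, F7 and F10 had the higher CPM in replicate 1 and F2 in replicate 2. The exact interval of the CPM ratio for counting error excluded 1 for F5 (1.16 to 2.02) but not for F7, F10 or F2. Apart from fibrinogen, it also included 1 for the other complement, coagulation and fibrinolysis genes under 1 TPM where computed. Of these, Serpinc1, Kng2, Cpb2, C9, F8 and Masp1 were higher in replicate 1. Kng1, F12, Serpinf2, Cfi, C6 and Masp2 were higher in replicate 2. No such interval was computed for Plg, whose CPM was at least 2.11-fold higher in replicate 1 against a floor of 3 counts. Nor was it computed for Csmd1 (291 counts in replicate 1 and 156 in replicate 2) or F2rl2 (60 and 31 counts). The TPM intervals of Csmd1 and F2rl2 were apart, higher in replicate 1. Ahsg, Serpina1a, Serpina1b, Apoh, Apob, Cps1, Fgl1 and Apoa1 are named after their values were seen. So are Serpinc1, Kng1, Kng2, Cpb2, Serpinf2, F12, Plg, Csmd1 and F2rl2. The part of hepatocyte RNA in the fibrinogen counts was not tested.

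**Figure D5:**
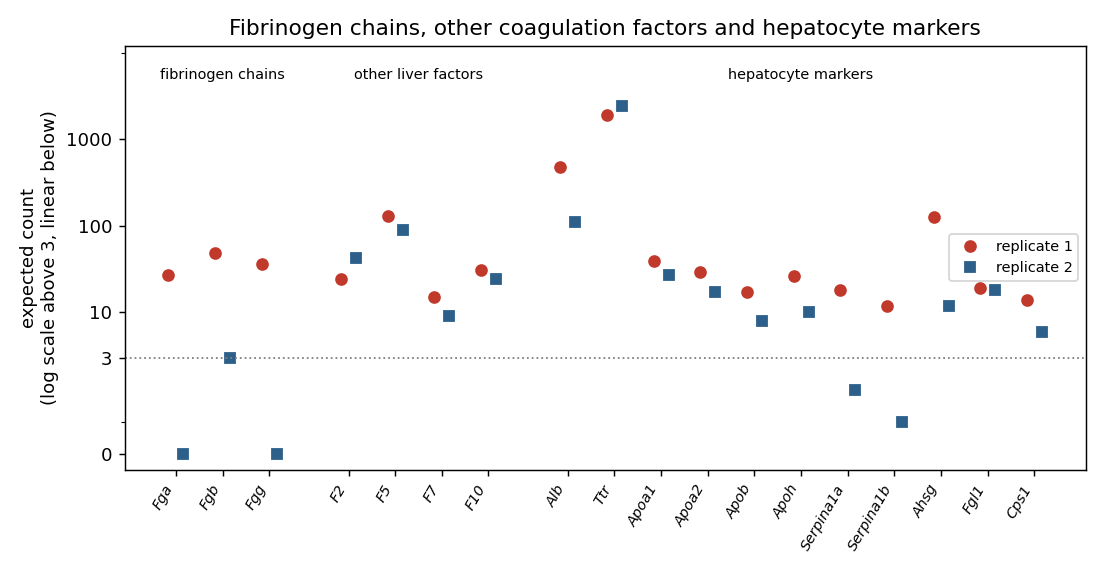
Expected counts of the fibrinogen chains, 4 other factors made by the liver and 11 hepatocyte markers in replicate 1 (red circles) and replicate 2 (blue squares), on an axis that is logarithmic above 3 counts. Fga and Fgg lie at 27 and 36 counts in replicate 1 and at 0 in replicate 2, of the other factors F5, F7 and F10 lie higher in replicate 1 and F2 in replicate 2, and Alb stands at 478 and 111 counts.

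The chains lie together on chromosome 3, and their promoters are shown because the 3 genes differed together. RefSeq gives the 200 bases before each gene start (GRCm38.p6, 5′ to 3′ on the strand of the gene): chr3:83025953-83026152 on the plus strand for Fga, chr3:83049864-83050063 on the minus strand for Fgb and chr3:83007524-83007723 on the plus strand for Fgg. Capitals mark 2 motifs of liver genes searched on both strands, the HNF1 half-site GTTAAT and the C/EBP site TTGCNNAA, whose matches do not overlap here.
Fga: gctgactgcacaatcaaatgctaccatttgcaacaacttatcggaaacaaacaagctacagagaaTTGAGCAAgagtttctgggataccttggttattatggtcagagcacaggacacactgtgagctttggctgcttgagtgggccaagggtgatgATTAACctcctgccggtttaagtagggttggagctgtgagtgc
Fgb: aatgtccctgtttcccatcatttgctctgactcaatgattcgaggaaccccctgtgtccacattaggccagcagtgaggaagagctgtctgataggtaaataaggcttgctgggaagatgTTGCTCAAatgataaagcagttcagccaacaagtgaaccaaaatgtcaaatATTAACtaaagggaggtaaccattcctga
Fgg: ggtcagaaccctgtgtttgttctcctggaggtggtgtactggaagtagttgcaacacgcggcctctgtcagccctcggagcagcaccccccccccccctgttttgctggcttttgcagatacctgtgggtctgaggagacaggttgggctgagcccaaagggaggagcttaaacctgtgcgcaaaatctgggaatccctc

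Fga and Fgb each hold 1 match to both motifs in the RefSeq window of 300 bases around the gene start, and Fgg holds neither. Of all 32851 windows of that length, 7.1% hold the HNF1 half-site and 10.8% the C/EBP site. RefSeq windows were at hand for 30 of the 39 genes, 34 windows in all, of which 8 held the HNF1 half-site and 6 the C/EBP site. The PU.1 site GAGGAAGT was also searched. It lay in 2 of the 34 windows, those of C1qc and F13a1, against 3.2% of all windows, and in none of the fibrinogen windows. A match to these letters is a description of the sequence and not a bound site.

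The anticoagulant genes of the vessel wall were all detected. Thbd (thrombomodulin), which turns thrombin towards protein C, had 34.2 TPM in replicate 1 and 41.4 TPM in replicate 2. Procr, the endothelial protein C receptor, had 14.8 TPM in replicate 1, against 14.5 TPM in replicate 2, and Pros1 (protein S), the cofactor of activated protein C, had 27.4 TPM in replicate 1 and 23.3 TPM in replicate 2. Thbd over Procr was 1.18 on the log2 scale in replicate 1 and 1.48 in replicate 2. F2r (PAR1), the thrombin receptor, had 6.67 TPM in replicate 1 and 5.02 TPM in replicate 2, a log2 ratio of 0.46. Of 8 endothelial markers, 6 were on the side of replicate 1 (median 0.32), while Thbd, at -0.19, was on the side of replicate 2.

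Tfpi (tissue factor pathway inhibitor, ENSMUSG00000027082.11, chr2:84432855-84476775, minus strand), the direct inhibitor of tissue factor with factor VIIa, had 13.5 TPM in replicate 1 and 16.4 TPM in replicate 2. It stood below F3 by a log2 ratio of -1.78 in replicate 1 and -2.05 in replicate 2. Its gene has several ends that decide whether the protein carries the third inhibitory domain. The sequences show the exon where the ends part in lower case and the first 30 bases of the next exon in capitals, for the full-length alpha form of 306 codons and a shorter form of 235 codons (GENCODE M21, mm10, minus strand, chr2:84444010-84444039 joined to chr2:84434392-84434421 or to chr2:84442896-84442925).
Tfpi alpha form: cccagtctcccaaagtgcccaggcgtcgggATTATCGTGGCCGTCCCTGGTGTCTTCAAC
Tfpi short form: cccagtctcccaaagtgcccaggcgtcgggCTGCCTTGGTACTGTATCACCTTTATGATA

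All ends were used. Of 401 pooled reads leaving that exon, 245 entered the alpha end, or 61.1% (exact 95% interval 56.1 to 65.9%), 98 the 235-codon end, or 24.4%, and 58 the end of a 246-codon form, or 14.5%. In the mm10 transcript tables the alpha transcript held 36.2% of Tfpi TPM in replicate 1 and 36.3% in replicate 2. Of its 10 quantified transcripts, 3 others had a mean share of 10% or more, 2 of them of 235 codons and 1 of 246 codons.

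Other genes of both systems were read for comparison. Of 15 other complement components matched, 5 were detected: beside Cfd, Colec12, a scavenger lectin, had 51.3 TPM in replicate 1, against 51.9 TPM in replicate 2, and Fcna (ficolin A), a lectin that starts the cascade, had 16.0 TPM in replicate 1 and 23.0 TPM in replicate 2. The mannose-binding lectin gene Mbl1 and the ficolin gene Fcnb had 0 counts in both libraries. Of 20 other regulators and receptors, 11 were detected, led by Serping1 (C1 inhibitor), which blocks C1r, C1s and the MASPs, at 614 TPM in replicate 1, against 534 TPM in replicate 2, and none passed 2-fold.

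Of 13 other coagulation factors matched, 5 were detected, and none is an activated plasma protease. They were Vkorc1 and Ggcx, the enzymes of the vitamin K cycle that clotting factors need, Mcfd2 and Lman1, the cargo receptors that carry factors V and VIII out of the endoplasmic reticulum, and Vwf, the carrier of factor VIII, of which Ggcx and Lman1 are named after their values were seen. Vkorc1 had 143 TPM in replicate 1 and 159 TPM in replicate 2, Mcfd2 had 62.04 and 72.9 TPM in replicates 1 and 2, and Vwf had 40.3 and 28.4 TPM in replicates 1 and 2. F11 had 0 counts in both. Of 12 other anticoagulants and protease-activated receptors, 6 were detected, led by Gas6, a vitamin K-dependent relative of protein S, at 213 TPM in replicate 1, against 199 TPM in replicate 2. Serpina5 and Serpina10 had 0 counts in both libraries.

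Of 11 fibrinolysis genes, 6 were detected, with a median log2 ratio of -0.35 and none past 2-fold (background 1.84%). All 6 were on the side of replicate 2 with intervals apart (background 39%). The highest were Anxa2 and S100a10, which bind plasminogen and its activator at the cell surface, and Plau (urokinase). Anxa2 had 375 TPM in replicate 1 and 505 TPM in replicate 2, S100a10 had 185 and 222 TPM in replicates 1 and 2, and Plau had 51.1 and 60.4 TPM in replicates 1 and 2. Plg (plasminogen), named after its values were seen, had 6 counts in replicate 1 and 0 counts in replicate 2. Of 7 platelet and megakaryocyte markers 3 were detected, among them Pf4, also made by macrophages, at 48.9 TPM in replicate 1, against 89.6 TPM in replicate 2, while Gp6 had 0 counts in both.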

How the data were processed

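Each library came as gene and transcript tables on mm10 (GENCODE M4, per the labels and file headers), in which the authors deposited expected counts (fractional where reads fit several transcripts) and 2 estimates of TPM, by maximum likelihood and as a posterior mean, with an interval. On mm9 the authors deposited 1 gene table in RPKM (Ensembl 65), exon coordinates, and junctions with counts of reads pooled over both libraries. Which aligner and counter were used is not given in these sources. Totals leave out rows that are not Ensembl genes, which took 5.01% of expected counts for replicate 1 and 5.98% for replicate 2.

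The mm9 gene table lists 37310 genes on 74620 lines, and no label ties its RPKM columns to a library, so only their mean was used. Symbols matched 42462 of 43346 genes. Positions, transcripts and codon numbers come from GENCODE M21 (mm10), and promoters from RefSeq (GRCm38.p6). C5 is listed as Hc and was read under that symbol, while Klkb1 and Tf matched no row and are not analysed here. Libraries were compared as log2 of TPM plus 0.5, centred on the median gene among those averaging 1 TPM or more. The pseudocount understates folds of low genes. Python 3.11.15, numpy 2.4.6, pandas 2.3.3, scipy 1.17.1, matplotlib 3.10.9 and, for scaling alone, edgeR 4.0.16 and DESeq2 1.42.0 in R 4.3.3 on rounded expected counts were used. The ratio step was tested on simulated data.

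The 39 genes, the related lists and the tests were chosen with earlier results of these data known. Beside the 39, genes of a list are named from its 3 of highest mean and those at 0 counts in both libraries, and others as chosen after their values were seen. A result that this rule would name is not reported here. Unannotated junctions are given at 10% or more of the reads of a gene's most covered junction, where that has 20 reads or more.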

Additional observations from a re-analysis of the deposited data

Results flagged for a closer look

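Reads lay across several junctions inside these genes that Ensembl 65 does not list, each above the 3 reads that a count of 0 allows (mm9 coordinates, reads pooled over both libraries). In C1s1, 7 such junctions have 1 end at a listed C1s1 splice site and span 94779 to 97528 bases: chr6:124481759-124576775 had 2214 reads, chr6:124482634-124577508 had 811, chr6:124483421-124578308 had 5024, chr6:124483993-124578771 had 2877, chr6:124485405-124581035 had 1977, chr6:124487505-124585032 had 736 and chr6:124490517-124585499 had 3122. Whether their far ends are exons of its near copy C1s2 was not tested. In C3, 2518 reads lay at chr17:57349745-57350992, while the listed intron 2 bases away had 0. In Cr1l, chr1:196956204-196957695 had 598 reads. In F8, chrX:72418350-72455708 had 12 reads, against 31 at its most covered junction, and in Masp2, chr4:147977279-147977530 had 6 reads, against 24. With 2 libraries no single library can be called an outlier, and with 1 group no effects could be compared between groups.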

How the results depend on the processing

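No paired analysis was possible because the series holds 1 group. The 27 genes detected came to 23 to 29 under the other units and detection levels tried, and to 27 without replicate 1 and 27 without replicate 2. The count of 0 genes past 2-fold was also 0 under posterior mean TPM, CPM, pseudocounts of 0.1 and 1, a filter at 5 TPM or none, edgeR or DESeq2 scaling and no centring, but a filter on the level or, with none, the pseudocount of 0.5 keeps the low genes from passing in each of these. In 2 alternatives chosen after seeing the data, no filter with a pseudocount of 0.1 TPM and no filter with CPM and 0.1 CPM, it was 3 (Fga, Fgb and Fgg), against 2.76% and 1.3% of all genes. The share of gene TPM, 0.164% ± 0.0138 (SD, n = 2), became 0.245% in CPM, where long genes weigh more, 0.222% in mm9 RPKM and 0.196% without mitochondrially encoded genes in the total, and 0.154 to 0.174% with a library left out. Of the 10 highest genes 7 to 10 stayed among the 10 highest. Of 18 gene pairs 15 to 17 kept their direction, but the size of many ratios changed. Of 90 alternative values, 58 stayed within the SD of the 2 libraries, 29 moved past it and 3 reversed a direction that both libraries shared. C3 over C4b was 0.07 in mm9 RPKM, against a mean of 1.35 in TPM. Thbd over Procr was 2.94 in CPM, against 1.33 in TPM. C1s1 over C1ra was 1.10 in mm9 RPKM, against 1.74 in TPM. Cd55 over Cd59a was 0.13 on the log2 scale in CPM, against -0.40 in TPM, and Cr1l over Cd55 was -0.55 in CPM and -0.99 in mm9 RPKM, against 0.12 in TPM. Fgg over Fgb, whose direction differs between the libraries, was -0.13 in CPM, -0.04 in mm9 RPKM and -0.03 without replicate 1, against 0.12 in TPM, and Fgb over Fga, at 0.0036 in TPM, was -0.02 in the posterior mean and without replicate 2. The count of 16 genes with 1 main transcript did not change with the posterior mean or with a library left out. Depth limits the genes under about 50 counts, the fibrinogen chains, F2, F7, F10 and Cfi among them, and the junction table cannot separate the libraries.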
